A study of Sus scrofa with 9 samples.

Results

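Muscle of 3 pigs fed a lysine-deficient diet was compared with muscle of 3 pigs fed a lysine-adequate diet, gene by gene. The 6 arrays were chosen by the diet in their labels out of 9 in the series. The remaining 3 came from pigs fed a lysine-excess diet, which enter only the estimate of the spread and a few values given alongside. All 27558 probe sets of the array were used. A probe set is a group of probes that together give 1 value per pig, and 13323 of them carry a single gene symbol and cover 12361 genes. All pigs were male finishing pigs weighing about 95 kg at the start. They ate their diet for 5 weeks before a piece of longissimus dorsi, a fast-twitch muscle along the spine, was taken at slaughter from its middle portion, from rib 10 to rib 12. Lysine was set by reference to the National Research Council requirement for swine. The sources used here do not give the lysine content of the diets, the breed or the feed intake. The labels number the pigs 1, 2 and 3 (deficient), 5, 6 and 7 (adequate) and 9, 10 and 11 (excess). Values are always listed in that order of pigs.

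Lysine cannot be made by pigs, and in cereal diets it is commonly the amino acid that limits the building of muscle protein. Cells sense a shortage of an amino acid through uncharged tRNA, which activates the kinase GCN2. GCN2 phosphorylates the initiation factor eIF2, which slows translation in general while favouring that of the transcription factor ATF4. ATF4 with its C/EBP partners then turns on genes for amino acid synthesis, amino acid uptake and tRNA charging. A separate route, mTORC1, couples amino acids and insulin-like growth factors to ribosome building and growth, and the ubiquitin-proteasome and autophagy systems return amino acids from muscle protein.

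The deposited values are on a logarithmic scale taken to be base 2, so a difference of 1 corresponds to a 2-fold difference. A difference is the mean of the deficient pigs minus the mean of the adequate pigs, and the error after ± is its standard error (SE, n = 3 pigs per diet) from a linear model over the 9 arrays. The medians of the 6 arrays ran from 5.01 to 5.07. Correlations between arrays ran from 0.977 to 0.991 within a diet and from 0.979 to 0.991 between the diets, so arrays of 1 diet were no more alike than arrays of both across all probe sets. The array of excess pig 11 stood apart, with a median of 5.21 and an SD over probe sets of 1.82 (1.93 to 1.99 on the other 8), and it enters the results below only through the spread. An error can therefore be wider than the spread of the 6 compared pigs. FKBP5 is an example (± 0.67), where excess pig 11 read 5.99 and the 6 compared pigs 7.87 to 8.69. Where values of the excess pigs are listed, that of pig 11 is the last. Markers of the labelled tissue were high: the skeletal actin ACTA1 read 12.65, 12.66 and 12.40 in the deficient pigs and 12.55, 12.54 and 12.69 in the adequate pigs, where the median of all probe sets was 5.05, and both the fast myosin MYH1 and the slow myosin MYH7 exceeded 12 in every one of the 6 pigs. The samples are bulk tissue, in which fewer cells of a type and less RNA per cell cannot be told apart.

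None of the probe sets passed the threshold of 0.05 for the adjusted p (limma with Benjamini-Hochberg adjustment over all 27558), and the smallest adjusted p was 0.145, for PHGDH; all other probe sets had an adjusted p that rounds to 1. With array quality weights PHGDH passed alone, at an adjusted p of 0.0123. The labels number the pigs as separate animals, and the sources used here give neither a batch nor a scan date. An unadjusted p under 0.05 was reached by 511 probe sets (1.85%), of which 232 were higher (0.842%) and 279 lower (1.01%) in the deficient pigs. The count was 976 without the array of excess pig 11, 941 with the 6 compared arrays alone and 794 without deficient pig 3. With no difference between the diets, 5% of probe sets would be expected at this threshold, above the 1.85% seen. In 1885 probe sets (6.84%) the 3 deficient pigs all lay on one side of the 3 adequate pigs, 1040 above them (3.77%) and 845 below (3.07%). Such genes are called not overlapping below. With 3 pigs per diet and no difference between the diets, such separation would be expected in a larger share of probe sets than was seen. The count alone therefore shows no effect of diet. Among the 12361 genes, each read on its probe set with the highest mean, 7.26% did not overlap (4.09% higher and 3.16% lower in the deficient pigs), 1.81% had an unadjusted p below 0.05 (0.744% higher and 1.07% lower) and 51.7% had the higher mean in the deficient pigs. These shares are the background for every gene list below, and nothing is called particular to a list from its counts. The lists were chosen with earlier results of these data known, so a share above the background is only a description. A list's share without overlap can exceed the background and still be no larger than expected without a difference. Of the 41 lists with at least 10 genes, 34 had a median difference under 0.1 in size, and the medians of 19 took the opposite sign when some pig was left out, none of them a median of 0.1 or more. Differences were small in general: the middle 95% of probe sets lay between -0.34 and 0.33, with a median SE of 0.13. A difference of at least 1 in size was seen in 46 probe sets, 25 higher and 21 lower, of which 14 and 9 carry a gene symbol.

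**Figure D1:**
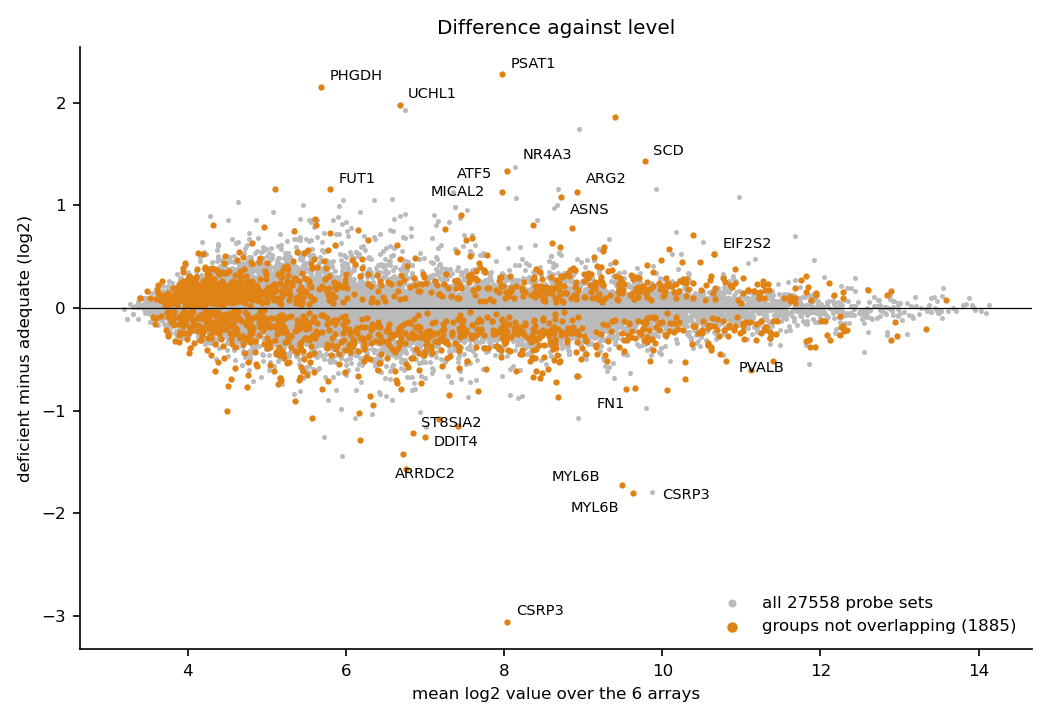
Each point is a probe set, with its mean log2 value over the 6 arrays on the horizontal axis and the deficient minus adequate difference (log2) on the vertical axis. Orange points are the 1885 probe sets whose 3 deficient and 3 adequate pigs did not overlap, and grey points are all 27558. PSAT1, PHGDH and UCHL1 lie at the top at 1.98 to 2.28, both probe sets of MYL6B and of CSRP3 lie at the bottom, and most points lie near 0 at every level.

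PSAT1 and PHGDH, which act in the synthesis of serine, had the highest differences among the probe sets with a gene symbol. The pathway leads from a glycolytic intermediate to serine in 3 steps. PHGDH, which catalyses the first and committed step, read 6.89, 6.76 and 6.64 in the deficient pigs and 4.92, 4.47 and 4.43 in the adequate pigs. All 3 deficient pigs stood far above the adequate pigs, and the difference was 2.16 ± 0.19 (95% confidence interval 1.71 to 2.61, 4.46-fold). The adequate pigs read less than the median probe set, where the signal may be near background, so the fold is not exact. PSAT1, the transaminase of the second step, read 10.07, 8.98 and 8.28 in the deficient pigs and 7.57, 6.53 and 6.40 in the adequate pigs. Here the groups did not overlap either but the deficient pigs spread widely, from 8.28 in pig 3 to 10.07 in pig 1. The difference was 2.28 ± 0.50 (4.84-fold) and lay between 1.79 and 2.69 as each of the 6 pigs was left out in turn. PSPH, the phosphatase that releases serine, read 5.36, 5.54 and 5.40 in the deficient pigs and 5.19, 5.20 and 4.95 in the adequate pigs, a smaller and tighter separation of 0.32 ± 0.09. In the excess pigs PHGDH read 4.92, 4.28 and 4.43 and PSAT1 7.49, 6.77 and 6.78, so that all 6 pigs without lysine deficiency lay below all 3 deficient pigs in both genes.

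Serine donates its side-chain carbon to folate, and the mitochondrial arm of that cycle passes it on as formate. ALDH1L2, a mitochondrial 10-formyltetrahydrofolate dehydrogenase, read 7.66, 7.53 and 7.83 in the deficient pigs and 7.10, 7.34 and 6.95 in the adequate pigs and did not overlap (0.55 ± 0.28). The mitochondrial enzymes MTHFD2 and SHMT2 were higher by 0.35 ± 0.26 and 0.21 ± 0.31, with overlap. For MTHFD2 the excess over the adequate pigs came from pig 1, which read 7.10 while pigs 2 and 3 both read 6.12, and the difference was 0.03 without pig 1. The cytosolic enzyme MTHFD1 differed by -0.30 ± 0.37, and by 0.13 without pig 1. Of the 12 measured genes of serine and one-carbon metabolism 9 were higher and 3 lower. In 4 of them (PSAT1, PHGDH, ALDH1L2 and PSPH) the deficient pigs lay above without overlap and in 0 below, which is 33.3% against the background of 7.26%. Since the list was chosen with earlier results of these data known, this contrast is a description only. The median difference was 0.14 (0.00 over all genes), and 0.06 without deficient pig 1.

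Among the genes of the amino acid response, ATF5, ASNS and CEBPG had the largest positive differences without overlap. ATF5, a stress-responsive factor related to ATF4, read 9.21, 8.50 and 8.38 in the deficient pigs and 7.99, 7.20 and 6.90 in the adequate pigs (1.33 ± 0.36, 2.52-fold). CEBPG, a dimer partner of ATF4, read 9.24, 8.90 and 8.63 in the deficient pigs and 8.52, 8.28 and 8.09 in the adequate pigs (0.63 ± 0.33). In both genes pig 1 was the highest deficient pig and pig 5 the highest adequate pig, and pig 3 still lay above pig 5. ASNS, which makes asparagine and is a standard target of ATF4, read 9.39, 9.53 and 8.88 in the deficient pigs and 8.29, 8.65 and 7.62 in the adequate pigs (1.08 ± 0.43, 2.12-fold). The transcript of ATF4 itself, which is regulated chiefly at translation, was high in all pigs and differed by 0.05 ± 0.05. TRIB3, a pseudokinase induced by ATF4, was dim and did not overlap (0.11 ± 0.07).

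Other genes of the response did not follow these. DDIT4, a stress-induced inhibitor of mTORC1, was lower in the deficient pigs and read 6.28, 5.84 and 7.00 in the deficient pigs and 7.02, 8.79 and 7.09 in the adequate pigs. Pig 6 stood far above the other adequate pigs and pig 3 (7.00) almost reached pig 5 (7.02), so the difference of -1.26 ± 0.75 became -0.68 without pig 6. DDIT3, the factor CHOP, differed by -0.18 ± 0.28 and CHAC1, which degrades glutathione, by -0.14 ± 0.56, and both had the opposite sign when adequate pig 5 was left out, CHAC1 also without deficient pig 1. ATF3 differed by 1.08 ± 0.93, and by 0.05 without adequate pig 6. The hormone gene FGF21 was dim (4.50, 4.81 and 4.47 against 4.48, 4.29 and 4.48). CTH, which makes cysteine, differed by -0.34 ± 0.31. Of the 19 measured genes on the list 12 were higher and 7 lower. Without overlap there were 4 higher and 1 lower (26.3%). The median was 0.05, between 0.00 and 0.12 as each pig was left out, the low end being reached without deficient pig 3 or adequate pig 6.

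**Figure D2:**
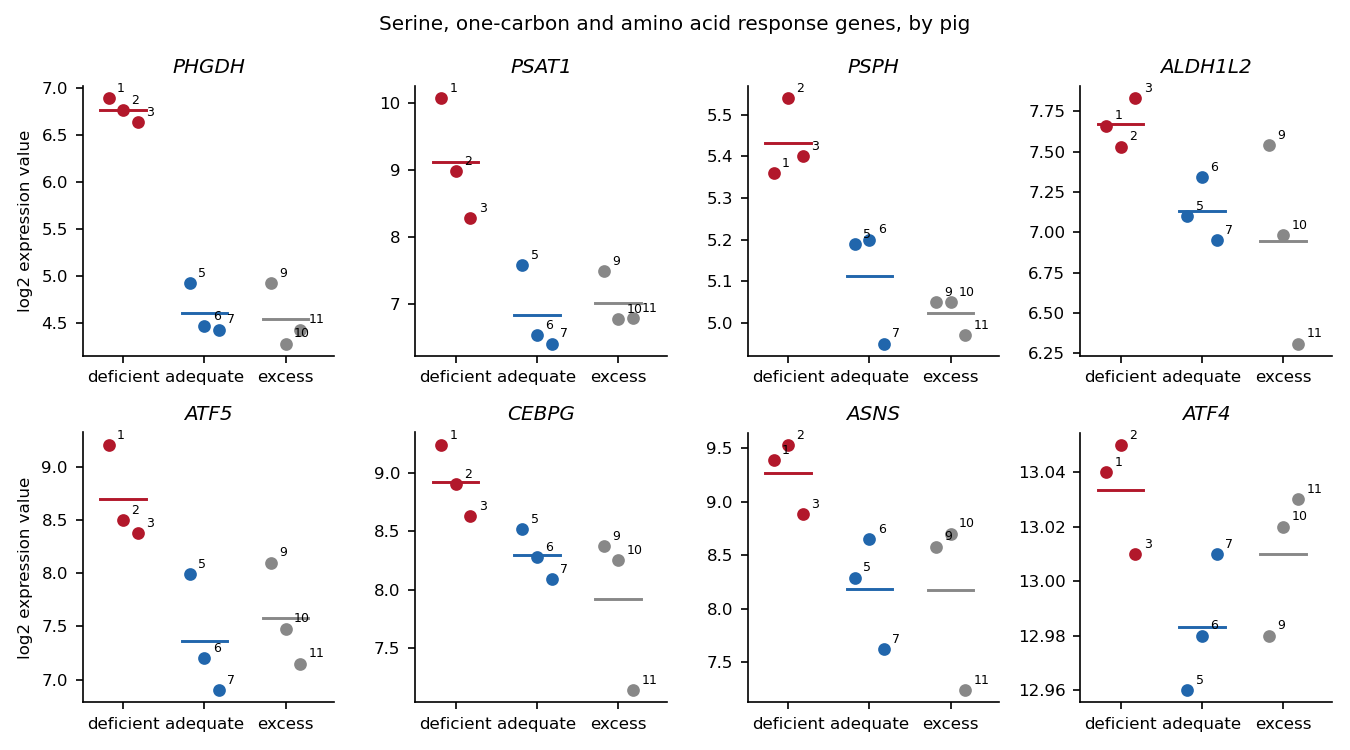
Log2 expression values of 8 genes, by pig; the numbers are the pigs' numbers, the bars are group means of 3 pigs and each panel has its own vertical axis. In PHGDH, PSAT1, PSPH, ALDH1L2, ATF5, CEBPG and ASNS the 3 deficient pigs lie above the 3 adequate pigs, while ATF4 spans only 12.96 to 13.05 over the 9 pigs and the groups touch.

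The 6 pigs stood in the same order in several of these genes. In PSAT1, PHGDH, ATF5 and CEBPG the values descended from pig 1 through 2, 3, 5 and 6 to 7. The same full order of the 6 pigs was found in 49 of 27558 probe sets (0.178%), covering 30 genes, among them XPOT, which exports tRNA from the nucleus (9.75, 9.46 and 9.38 against 9.18, 9.17 and 8.60, 0.55 ± 0.32), and the aspartyl-tRNA synthetase DARS (10.46, 10.40 and 10.32 against 10.23, 10.18 and 10.01, 0.26 ± 0.17). The opposite order was found in 46 probe sets (0.167%) and 25 genes, among them both probe sets of the myosin light chain MYL6B, the carbonic anhydrase CA3, the tropomyosin TPM2, the membrane-bending protein BIN1 (-0.31) and supervillin, SVIL (-0.30). This order was looked for after the values of PSAT1 had been seen, so it is a description only. Some probe sets take any given order of 6 pigs by chance, in a share not far below those found here. The counts alone therefore show no link between these genes. The excess pigs also descended by number in ATF5 (8.10, 7.48 and 7.15) and CEBPG (8.37, 8.25 and 7.14), but not in PSAT1 or PHGDH. Among the 6 pigs, pig 1 had the highest values of PSAT1, PHGDH, ATF5 and CEBPG and the lowest of MYL6B. Among the deficient pigs it was the lowest for PSPH and not the highest for ALDH1L2.

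The enzymes that break lysine down did not separate the diets. AASS, the bifunctional enzyme that opens the main route, read 7.08, 6.65 and 7.13 in the deficient pigs and 6.41, 7.35 and 7.48 in the adequate pigs. The groups overlapped fully, and the difference of -0.12 ± 0.28 was slightly positive without deficient pig 2 or without adequate pig 6 or 7. ECHS1, a hydratase shared with fatty acid oxidation, was the member with the smallest unadjusted p (-0.41 ± 0.13) and the groups overlapped. TMLHE, which begins carnitine synthesis from trimethyllysine, differed by 0.13 ± 0.14. None of the 10 measured lysine degradation genes was without overlap (0.0%), with 4 higher and 6 lower. Of 15 genes for the breakdown of leucine, isoleucine and valine 10 were lower and none was without overlap. Among these were BCKDHB, a subunit of the branched-chain keto acid dehydrogenase (-0.27 ± 0.25), and its inhibiting kinase BCKDK (-0.21 ± 0.20). The median of that list, -0.06, was 0.06 without deficient pig 2 and 0.01 without adequate pig 6.

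Transporters of amino acids overlapped throughout: 11 of 19 were higher, 8 lower and none separated. SLC38A2, a sodium-coupled carrier of neutral amino acids that responds to starvation in cultured cells, differed by 0.47 ± 0.30 on its brighter probe set and 0.48 ± 0.28 on the other. Deficient pig 3 was highest on both, at 12.61 and 11.80. The glutamine carrier SLC1A5 differed by 0.42 ± 0.28. SLC7A2, a carrier of lysine and arginine, read 10.10, 10.09 and 10.41 in the deficient pigs and 9.89, 10.56 and 9.70 in the adequate pigs, with adequate pig 6 the highest of all (0.15 ± 0.24). SLC7A8, a carrier of neutral amino acids, differed by -0.40 ± 0.38 and SLC38A7, a lysosomal carrier, by -0.44 ± 0.20.

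Of 11 genes of arginine, polyamine and creatine metabolism 4 were higher and 7 lower, and ARG2 and AMD1 were those higher without overlap. ARG2, the mitochondrial arginase that turns arginine into ornithine, read 9.94, 9.29 and 9.25 in the deficient pigs and 8.69, 8.10 and 8.28 in the adequate pigs (1.13 ± 0.33, 2.2-fold). AMD1, which makes the aminopropyl donor for spermidine and spermine, read 10.62, 10.42 and 10.41 in the deficient pigs and 10.20, 9.84 and 10.04 in the adequate pigs (0.45 ± 0.13). Neither gene overlapped, and the closest pigs were 3 (10.41) and 5 (10.20) for AMD1. OAZ1, the antizyme that limits polyamine synthesis and uptake, was lower and touched without overlap (12.02, 12.32 and 12.15 against 12.32, 12.38 and 12.35, -0.19 ± 0.08). The other 8 genes overlapped, so 27.3% of the list was without overlap (7.26% over all genes), and the list median was -0.09.

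Genes for tRNA charging and for the start of translation were mostly higher, by small amounts. Of 17 cytosolic aminoacyl-tRNA synthetases, the enzymes that load each tRNA with its amino acid, 13 were higher and 4 lower (median 0.07, 0.06 to 0.13 with a pig left out). DARS and FARSA (0.07) did not overlap, which is 11.8% of the list. The glycyl enzyme GARS had the largest difference (9.37, 9.32 and 8.88 against 8.93, 8.55 and 8.76, 0.44 ± 0.20), and deficient pig 3 (8.88) was just under adequate pig 5 (8.93). The seryl, asparaginyl and threonyl enzymes SARS, NARS and TARS differed by 0.29, 0.24 and 0.26. KARS, the enzyme that charges lysine itself, read 11.01, 11.30 and 11.21 in the deficient pigs and 11.17, 11.13 and 11.24 in the adequate pigs, with full overlap (-0.01 ± 0.14). Among the mitochondrial synthetases 4 of 11 were higher, with CARS2 above without overlap (0.24 ± 0.13) and NARS2 below (-0.22 ± 0.16), which is 18.2% of the list.

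EIF2S2, the beta subunit of eIF2, the factor whose alpha subunit GCN2 phosphorylates, read 11.01, 10.97 and 10.78 in the deficient pigs and 10.51, 10.29 and 10.39 in the adequate pigs. Even the lowest deficient pig, 3, was above the highest adequate pig, 5, and the difference was 0.52 ± 0.10 (1.44-fold). A second probe set of the gene holds identical values. The gamma subunit EIF2S3 was also above without overlap (9.54, 9.61 and 9.51 against 9.33, 9.37 and 9.37, 0.20 ± 0.14), as were EIF3E of the eIF3 complex (0.23 ± 0.15) and the eIF4G-related EIF4G2 (0.13). EIF5A, which relieves stalled ribosomes, lay below (-0.13 ± 0.07). Of 34 translation factors 26 were higher and 8 lower; the median was 0.06 (0.04 to 0.07 with a pig left out) and 14.7% were without overlap.

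Cytosolic ribosomal proteins showed 25 of 39 higher with a median of 0.04, and -0.01 without deficient pig 2. RPS12 (0.16 ± 0.10) and RPL4 (0.13 ± 0.07) were among the 6 that lay above without overlap, and 1 lay below. Without overlap was thus 17.9% of the list, against 7.26% over all genes. Differences in this family ran from -0.16 to 0.16. Mitochondrial ribosomal proteins showed 22 of 54 higher, and 27 after quantile normalization of the deposited values. Their lowest member was MRPS24 (-0.47 ± 0.30). In ribosome biogenesis WDR12, which acts in processing of the large-subunit RNA, was higher without overlap (8.12, 7.54 and 8.02 against 7.51, 7.51 and 7.47, 0.40 ± 0.16). In that list of 25 genes 1 lay above and 1 below without overlap (8%), near the 7.26% over all genes. MYC, a driver of ribosome genes, differed by 0.60 ± 0.28, with deficient pig 3 highest at 6.98, and the median of the 25 genes was 0.00.

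Heat shock proteins, which fold other proteins or keep them from aggregating, were the list with the most genes above without overlap. Of 34 heat shock proteins and cochaperones 28 were higher in the deficient pigs and 6 lower. The deficient pigs lay above without overlap in 10 genes and below in 1 (HSPB6, -0.17), which is 32.4% against the background of 7.26%. This list too was chosen with earlier results of these data known, so the contrast is a description only. DNAJA1, a J-domain partner of HSP70, read 10.11, 10.30 and 10.26 in the deficient pigs and 9.90, 9.67 and 9.69 in the adequate pigs (0.47 ± 0.10). CHORDC1, a cochaperone of HSP90, read 10.17, 9.92 and 9.95 in the deficient pigs and 9.65, 9.63 and 9.50 in the adequate pigs (0.42 ± 0.11). In both genes the 3 deficient pigs formed a tight group above the adequate pigs. The HSP90 gene HSP90AB1 (0.17 ± 0.06) and the HSP110 gene HSPA4 (0.28 ± 0.12) separated by less. So did the mitochondrial chaperones HSPD1 (9.43, 9.29 and 9.33 against 9.06, 9.09 and 9.10, 0.27 ± 0.16), HSPA9 (0.19 ± 0.11) and HSPE1 (0.09 ± 0.09), and DNAJA2, DNAJC7 and CACYBP at 0.15, 0.15 and 0.12. The list median was 0.14, between 0.10 and 0.18 as each pig was left out.

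By pig, the median deviation of the heat shock genes from their 6-pig mean was 0.03, 0.04 and 0.14 in the deficient pigs and -0.05, -0.08 and -0.04 in the adequate pigs. Every deficient pig thus lay above every adequate pig, with pig 3 the highest. The excess pigs read 9.37, 9.41 and 9.17 for DNAJA1 and 9.31, 9.09 and 8.94 for CHORDC1, each below every adequate pig. Among chaperones of the endoplasmic reticulum 10 of 21 were higher. HSPA5, the HSP70 of that compartment, differed by 0.29 ± 0.19 with overlap, and SERP1, a translocon protein, lay above (0.30 ± 0.11). ERLEC1, a lectin of protein quality control, lay below (9.00, 8.95 and 8.91 against 9.49, 9.44 and 9.29, -0.45 ± 0.12). The excess pigs read 8.89, 9.07 and 8.60 for ERLEC1, near the deficient pigs. PDIA6 also lay below (-0.20 ± 0.16). In that list 1 gene lay above and 2 below without overlap, which is 14.3% (7.26% over all genes).

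Proteasome genes, which encode the protease that degrades ubiquitinated proteins, were higher in 23 of 31 cases, with a median of 0.08 (0.04 to 0.09 with a pig left out). PSMD12, a lid subunit of the regulatory particle (0.18 ± 0.09), and the core subunits PSMA5 (0.20 ± 0.14) and PSMA6 (0.17) were the 3 without overlap (9.68%). Autophagy genes, calpains and cathepsins showed 11 of 29 higher and a median of -0.04. The muscle ubiquitin ligase FBXO32 (atrogin-1), a marker of atrophy, read 9.62, 9.24 and 9.83 in the deficient pigs and 8.97, 9.75 and 10.36 in the adequate pigs, which lay on both sides of the deficient range (-0.13 ± 0.33). Genes that restrain growth had 11 of 17 members lower, none without overlap. Myostatin, MSTN, the secreted inhibitor of muscle growth, read 9.35, 9.77 and 9.57 in the deficient pigs and 8.88, 9.93 and 9.56 in the adequate pigs (0.11 ± 0.25), with adequate pig 5 lowest and pig 6 highest. The cell cycle inhibitor CDKN1A differed by 0.40 ± 0.30.

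Growth and nutrient signalling genes differed little. In the list of amino acid sensors and mTORC1 components 22 of 33 were lower (median -0.06, and -0.01 without deficient pig 1 or 2). CASTOR1, an arginine sensor, and WDR24, a GATOR2 subunit, lay below without overlap, by -0.19 ± 0.10 and -0.17 ± 0.07, and none lay above. That is 6.06% of the list, near the 7.26% over all genes. MTOR itself read 6.74, 6.79 and 7.15 in the deficient pigs and 6.79, 6.93 and 6.77 in the adequate pigs (0.07 ± 0.22). SESN2, a leucine sensor and ATF4 target, differed by 0.27 ± 0.13, with adequate pig 5 (4.92) above deficient pig 2 (4.84). IGF1, the growth factor made in muscle and liver, read 8.52, 8.47 and 8.68 in the deficient pigs and 8.96, 8.71 and 8.18 in the adequate pigs (-0.07 ± 0.21). The adaptor GRB10, which restrains insulin receptor signalling, was above without overlap (9.25, 9.03 and 9.23 against 8.96, 8.58 and 8.98, 0.33 ± 0.39), the single such gene of the 20 in its list (5%). Muscle transcription factors and satellite cell genes were higher in 14 of 18 cases, none without overlap, with the myogenic regulator MYOD1 at 0.40 ± 0.23 and its upstream cofactor EYA1 at -0.45 ± 0.31.

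The largest negative differences of probe sets with a gene symbol were those of MYL6B and CSRP3, which belong to the contractile apparatus. MYL6B, a myosin light chain found in slow muscle and non-muscle cells, read 7.79, 8.89 and 9.50 in the deficient pigs and 10.14, 10.44 and 11.01 in the adequate pigs. All deficient pigs lay below all adequate pigs, pig 1 by more than 2 units, and the difference was -1.80 ± 0.42 (3.49-fold lower, between -2.19 and -1.33 with a pig left out). A second probe set gave -1.72 ± 0.42. CSRP3, the muscle LIM protein of the Z-disc, read 7.28, 10.66 and 8.99 in the deficient pigs and 10.20, 10.65 and 11.46 in the adequate pigs on its brighter probe set, where pig 2 lay at the level of the adequate pigs (-1.80 ± 0.78). On the other it read 4.73, 8.10 and 6.72 in the deficient pigs and 9.07, 9.78 and 9.86 in the adequate pigs, without overlap (-3.06 ± 0.74). The deficient pigs kept the same order on both probe sets, pig 1 lowest and pig 2 highest, and without pig 1 the differences were -0.95 and -2.16. The excess pigs read 11.34, 11.12 and 10.86 for MYL6B and 11.43, 11.12 and 10.47 for the brighter probe set of CSRP3, near the adequate pigs.

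Other genes of slow fibres, the oxidative fibres specialised for endurance, differed less than MYL6B and CSRP3. TNNC1, the troponin C of slow fibres, was higher without overlap (11.22, 11.13 and 11.13 against 10.79, 10.74 and 11.07, 0.29 ± 0.11), as was the slow tropomyosin TPM3 (0.22 ± 0.12). The slow light chain MYL3 differed by 0.31 ± 0.18, MYL2 by -0.01 ± 0.11 and the slow myosin MYH7 by 0.06 ± 0.14. The excess pigs read 11.37, 11.19 and 11.45 for TNNC1 and 10.24, 9.83 and 10.16 for TPM3, with means above those of the deficient pigs. Altogether 7 of 12 slow fibre genes were higher and 5 lower (median 0.08). Without overlap 2 lay above and 1, MYL6B, below, which is 25% of the list (7.26% over all genes). Of 11 fast fibre genes 10 were lower and 1 higher, and 2 were higher after quantile normalization of the deposited values. Their median was -0.08 (-0.09 to -0.04 with a pig left out). PVALB, the calcium buffer parvalbumin of fast fibres, was the single fast gene without overlap (9.09% of the list). It read 10.13, 10.65 and 10.87 in the deficient pigs and 11.17, 11.07 and 10.97 in the adequate pigs (-0.52 ± 0.17). Its difference was -0.31 without pig 1. The fast myosin MYH1 differed by -0.26 ± 0.16, with deficient pig 3 (12.97) above adequate pigs 5 and 6.

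Among 31 genes of the Z-disc, titin and costameres, which anchor the filaments, those without overlap were lower in the deficient pigs. They were the LIM protein FHL1 (11.95, 11.91 and 11.97 against 12.11, 12.08 and 12.45, -0.27 ± 0.12), the actin-bundling SYNPO2 (6.92, 6.96 and 7.02 against 7.13, 7.21 and 7.29, -0.24 ± 0.09) and LDB3, a Z-disc protein (-0.13). That makes 3 below and 0 above, 9.68% of the list. FHL3 differed by -0.63 ± 0.27, with pig 3 (9.69) above pig 5 (9.46). Outside the list the beta tropomyosin TPM2 lay below (12.62, 12.90 and 12.96 against 13.08, 13.10 and 13.12, -0.27 ± 0.11), as did CA3, the carbonic anhydrase of slow muscle (12.58, 12.78 and 12.87 against 13.01, 13.06 and 13.07, -0.31 ± 0.09), and ZNF106, a zinc finger protein needed for healthy muscle innervation in mice (11.61, 11.78 and 11.83 against 12.06, 12.09 and 12.20, -0.38 ± 0.08). In these 3 genes pig 1 was the lowest of all 6.

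Of 30 glycolysis and glycogen genes 21 were lower (median -0.05). TPI1, triose phosphate isomerase, was the single gene without overlap (-0.14 ± 0.06), or 3.33% of the list, and GYS1, muscle glycogen synthase, differed by -0.22 ± 0.11. PPP1R3B and PPP1R3C, which direct a phosphatase to glycogen and favour its storage, were higher. PPP1R3C read 9.29, 9.46 and 9.70 against 9.40, 8.49 and 8.85 (0.57 ± 0.35) and PPP1R3B read 9.13, 8.82 and 9.56 against 9.02, 8.32 and 7.16 (1.00 ± 0.56), both with overlap, and PPP1R3B gave 0.50 without adequate pig 7. Of 50 oxidative phosphorylation genes 33 were lower (median -0.05). All 4 without overlap lay below, and they were 8% of the list, near the 7.26% over all genes. They encode parts of complex I, whose share of the list is not given here: NDUFA10 (-0.41 ± 0.17), NDUFA1 (7.71, 7.88 and 8.02 against 8.12, 8.12 and 8.32, -0.32 ± 0.11), NDUFS3 (-0.16 ± 0.07) and NDUFB1 (-0.12 ± 0.06). The tricarboxylic acid cycle had 9 of 19 genes higher and none without overlap. Fatty acid oxidation and mitochondrial biogenesis had 15 of 29 genes higher, with 2 below and 0 above without overlap (6.9%). SLC25A26, the mitochondrial carrier of S-adenosylmethionine, lay below without overlap (-0.36 ± 0.13). Of 25 mitochondrial carriers 1 lay above and 2 below without overlap, which is 12% (7.26% over all genes).

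Genes of fat synthesis were as often higher as lower, and a few of them separated the diets. SCD, the desaturase that makes monounsaturated fatty acids, read 10.55, 10.70 and 10.24 in the deficient pigs and 9.87, 9.21 and 8.11 in the adequate pigs. The groups did not overlap, and the adequate pigs were widely spread with pig 7 the lowest, so that the difference of 1.43 ± 0.42 (2.7-fold) was 0.95 without pig 7. ME1, the malic enzyme that supplies NADPH, read 9.42, 9.45 and 9.42 in the deficient pigs and 9.05, 9.03 and 9.00 in the adequate pigs. The 3 pigs of each diet lay close together, and the difference was 0.40 ± 0.15. Its excess pigs read 8.91, 8.51 and 8.22. The acyl-CoA synthetase ACSL3 was above without overlap (0.32 ± 0.15). THRSP, a thyroid-hormone-responsive regulator of fat synthesis, differed by 0.98 ± 0.38 with pig 2 far the highest (0.63 without it), DGAT2, the last enzyme of triglyceride synthesis, by 0.56 ± 0.34 and ACLY, which makes cytosolic acetyl-CoA, by 0.44 ± 0.37. ELOVL1, an elongase of very long chains, lay below without overlap (5.12, 5.13 and 5.19 against 6.00, 5.47 and 5.22, -0.42 ± 0.21), and the desaturase FADS1 differed by -0.45 ± 0.28. Over the 24 genes 12 were higher and 12 lower, 3 of them above and 1 below without overlap (16.7%).

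Of 18 adipocyte markers 13 were higher, with a median of 0.05 (from -0.01 without deficient pig 3 to 0.16 without deficient pig 2). The median level of the list ran from 5.57 to 5.88 in the deficient pigs and from 5.12 to 5.66 in the adequate pigs. CIDEC, which fuses lipid droplets, was the single marker without overlap (5.56% of the list). It read 6.12, 5.99 and 6.08 against 5.86, 5.49 and 5.13 (0.57 ± 0.17). THRSP is on this list as well. The droplet coat protein PLIN1 read 6.05, 6.14 and 6.50 in the deficient pigs and 6.22, 5.79 and 5.38 in the adequate pigs (0.43 ± 0.21), lowest in adequate pig 7, as SCD was, and leptin, LEP, was dim in all pigs (4.41, 4.29 and 4.71 against 4.50, 4.25 and 4.41). The part of fat cells in the SCD difference was not tested. Genes of cholesterol synthesis and uptake were mostly lower, with 12 of 14 genes lower and a median of -0.15 (-0.25 to -0.11 with a pig left out). None of these was without overlap, and the differences of the pathway enzymes FDPS, MSMO1, CYP51 and SQLE were -0.25, -0.23, -0.21 and -0.19.

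Genes of the extracellular matrix were mostly lower. Of 46 measured fibroblast and matrix markers other than collagens 40 were lower in the deficient pigs and 6 higher, with a median of -0.21. The deficient pigs lay below without overlap in 7 genes and above in 0 (15.2%). FN1, fibronectin, read 9.24, 8.58 and 9.60 in the deficient pigs and 10.21, 9.79 and 9.80 in the adequate pigs (-0.79 ± 0.29, 1.73-fold lower). MMP2, a gelatinase, read 8.47, 8.26 and 8.65 in the deficient pigs and 9.31, 8.93 and 8.67 in the adequate pigs (-0.51 ± 0.21). FMOD, the collagen-binding proteoglycan fibromodulin, read 7.05, 6.66 and 6.95 in the deficient pigs and 8.61, 7.14 and 7.44 in the adequate pigs (-0.84 ± 0.39). In all 3 genes adequate pig 5 was the highest of the 6, and FMOD gave -0.40 without it. SPARC, LUM and EFEMP2 lay below by -0.27, -0.27 and -0.26. POSTN, periostin, differed by -0.88 ± 0.47 with overlap, and by -0.35 without adequate pig 5.

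Much of the matrix difference rested on adequate pig 5. The median deviation of the list from the 6-pig mean was 0.37 in pig 5, 0.00 in pig 6 and -0.05 in pig 7, against -0.05, -0.25 and 0.04 in the deficient pigs. Without pig 5 the median difference was -0.08, with 31 of 46 genes lower, and without deficient pig 2 it was -0.12. Among the collagens, the main fibres of the matrix, the picture was mixed. Of 29 measured 19 were lower, and the genes below without overlap were the fibrillar chains COL1A1 (10.53, 10.33 and 10.66 against 11.13, 10.77 and 10.97, -0.45 ± 0.12) and COL1A2 (8.58, 8.02 and 8.67 against 9.26, 8.82 and 8.78, -0.53 ± 0.23) and the microfibrillar COL6A3 (-0.38 ± 0.20 on its brightest probe set). The type III chain COL3A1 differed by -0.51 ± 0.28, with overlap. The basement membrane chain COL4A6 and the hemidesmosome collagen COL17A1 lay above, so 17.2% of the list was without overlap (7.26% over all genes). All 3 probe sets of COL6A3 and both of COL1A1 lay below without overlap. The median over all collagens was -0.03 (0.01 without adequate pig 5), and 16 of the 29 were dimmer than the median probe set.

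**Figure D3:**
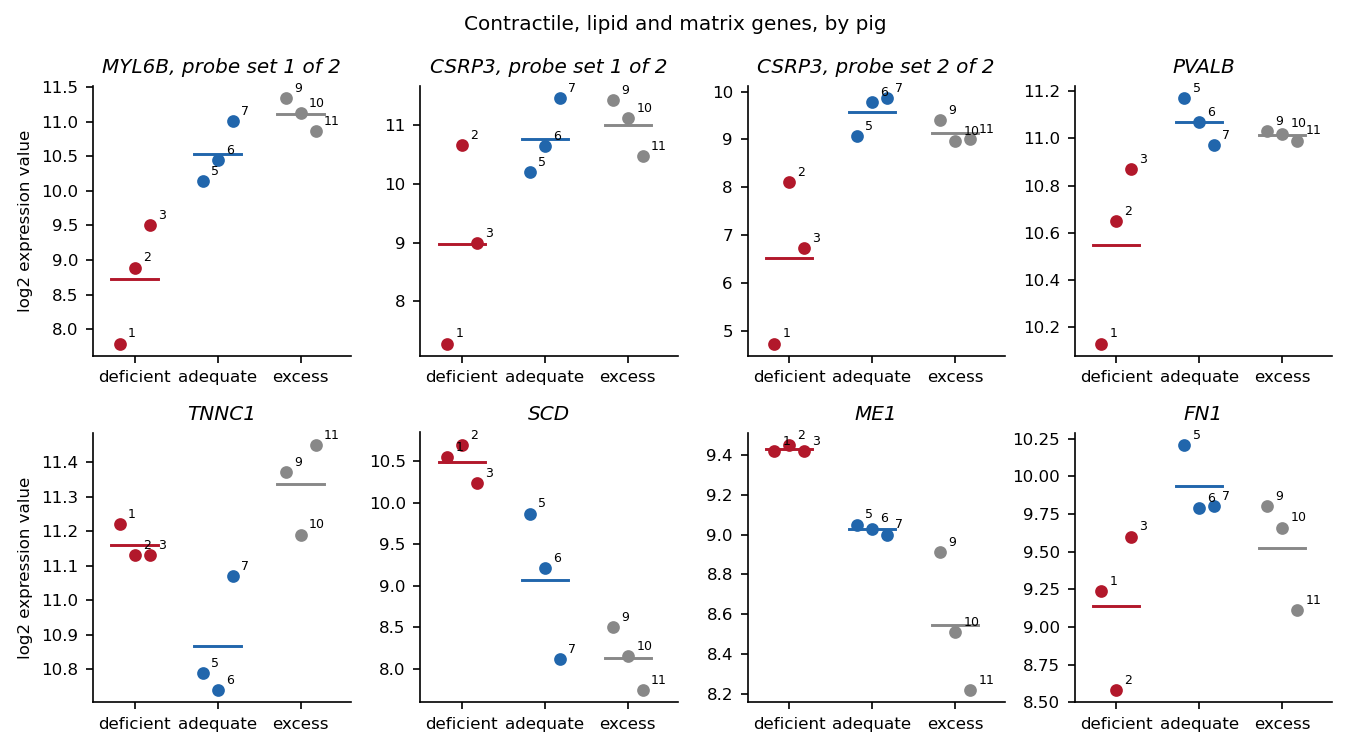
Log2 expression values of contractile, lipid and matrix genes, by pig; the numbers are the pigs' numbers, the bars are group means of 3 pigs and each panel has its own vertical axis. Deficient pigs lie below adequate pigs for MYL6B, PVALB and FN1 and on the dimmer probe set of CSRP3, and above them for TNNC1, SCD and ME1; on the brighter CSRP3 probe set deficient pig 2 lies among the adequate pigs.

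Markers of other cells in the muscle did little to separate the diets. Smooth muscle and pericyte markers were lower in 9 of 11 cases, none without overlap, with a median of -0.18 that was -0.09 without adequate pig 5 and also -0.09 without deficient pig 2. Their median levels ran from 7.06 to 7.21 in the deficient and from 6.91 to 7.34 in the adequate pigs. Endothelial markers were higher in 6 of 10, with a median of 0.06 (-0.04 without adequate pig 7). Leukocyte markers were higher in 9 of 18 (6 after quantile normalization of the deposited values), with a median of 0.00. The leukocyte antigen PTPRC differed by -0.14 ± 0.19. Erythrocyte and nerve markers were dim, with 5 of 6 and 6 of 6 below the median probe set. The part of a different cell content in the matrix values was not tested.

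Genes that react within minutes to stimulation or handling varied more between pigs of the same diet than any other of the lists measured. Of 20 immediate early genes 17 were higher in the deficient pigs (median 0.26), but none was without overlap (0.0%). NR4A3, an orphan nuclear receptor, read 9.15, 7.93 and 9.38 in the deficient pigs and 8.25, 7.24 and 6.86 in the adequate pigs (1.37 ± 0.54), with pig 5 above pig 2. FOS, a subunit of AP-1, read 7.35, 7.36 and 9.30 in the deficient pigs and 7.48, 7.62 and 6.05 in the adequate pigs, where pig 3 alone stood high (0.96 ± 0.79, and 0.31 without pig 3). EGR1 and JUN differed by 0.46 ± 0.35 and 0.30 ± 0.30. By pig the median deviation of the list was 0.69 in deficient pig 3 and 0.30 in adequate pig 5, and 0.02, -0.14, -0.34 and -0.47 in pigs 1, 2, 6 and 7. The median difference accordingly ran from 0.04 without pig 3 to 0.64 without pig 5, and was 0.07 without pig 7.

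Of 18 genes that glucocorticoids induce in muscle, 16 were lower (median difference -0.19, -0.27 to -0.11 with a pig left out). DDIT4 and KLF9, a hormone-induced transcription factor (8.29, 7.72 and 7.91 against 8.44, 8.50 and 8.34, -0.45 ± 0.23), lay below without overlap (11.1%). TSC22D3, the leucine zipper GILZ, differed by -0.24 ± 0.23, and FKBP5, a cochaperone of the receptor, by -0.21 ± 0.67. HSD11B1, which regenerates cortisol in tissue, differed by -0.45 and PDK4, a kinase that spares glucose, by -0.14. The median deviations were -0.04, -0.27 and 0.04 in the deficient and 0.21, 0.10 and 0.07 in the adequate pigs, which did not overlap. Among 15 clock genes CLOCK, an activator of the clock, lay above (0.23 ± 0.11) and BHLHE40, a repressor, below (9.97, 9.83 and 9.91 against 10.12, 10.18 and 10.22, -0.27 ± 0.09). That is 13.3% of the list without overlap. ARNTL, the partner of CLOCK, differed by 0.39 ± 0.17, PER1 by -0.44 ± 0.43 and PER2 by -0.24 ± 0.17. The sources used here do not give the time of day at slaughter, and its part in these values was not tested.

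**Figure D4:**
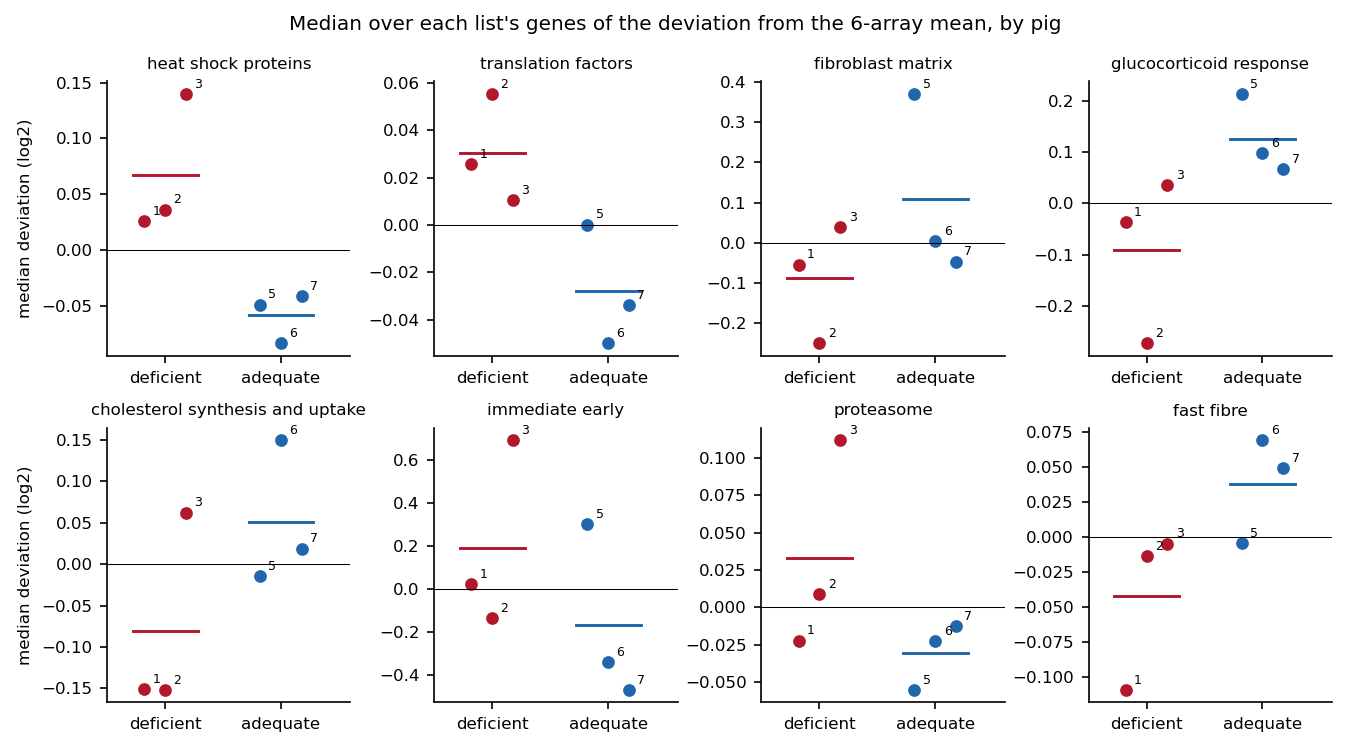
For 8 gene lists, the median over the list's genes of each pig's deviation from the 6-pig mean (log2), by pig and diet; bars are means of 3 pigs, numbers are the pigs' numbers and the vertical axes differ between panels. The diets do not overlap for heat shock proteins, translation factors and glucocorticoid response genes and almost touch for fast fibre genes, pig 5 stands high for fibroblast matrix, and pigs 3 and 5 stand high for immediate early genes.

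Antioxidant genes were found on both sides. TXN, thioredoxin (10.18, 10.24 and 10.19 against 10.07, 9.67 and 9.97, 0.30 ± 0.27), the glutathione-synthesis enzyme GCLC (0.23 ± 0.15) and the quinone reductase NQO1 (0.33 ± 0.29) lay above without overlap. The peroxiredoxin PRDX6 lay below (-0.24 ± 0.10) and PRDX1 differed by -0.35 ± 0.13 with overlap. Of the 24 genes 10 were higher and 16.7% were without overlap, with a median of -0.01. Cell cycle genes were mostly dim (10 of 18 below the median probe set), and 12 were lower.

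**Figure D5:**
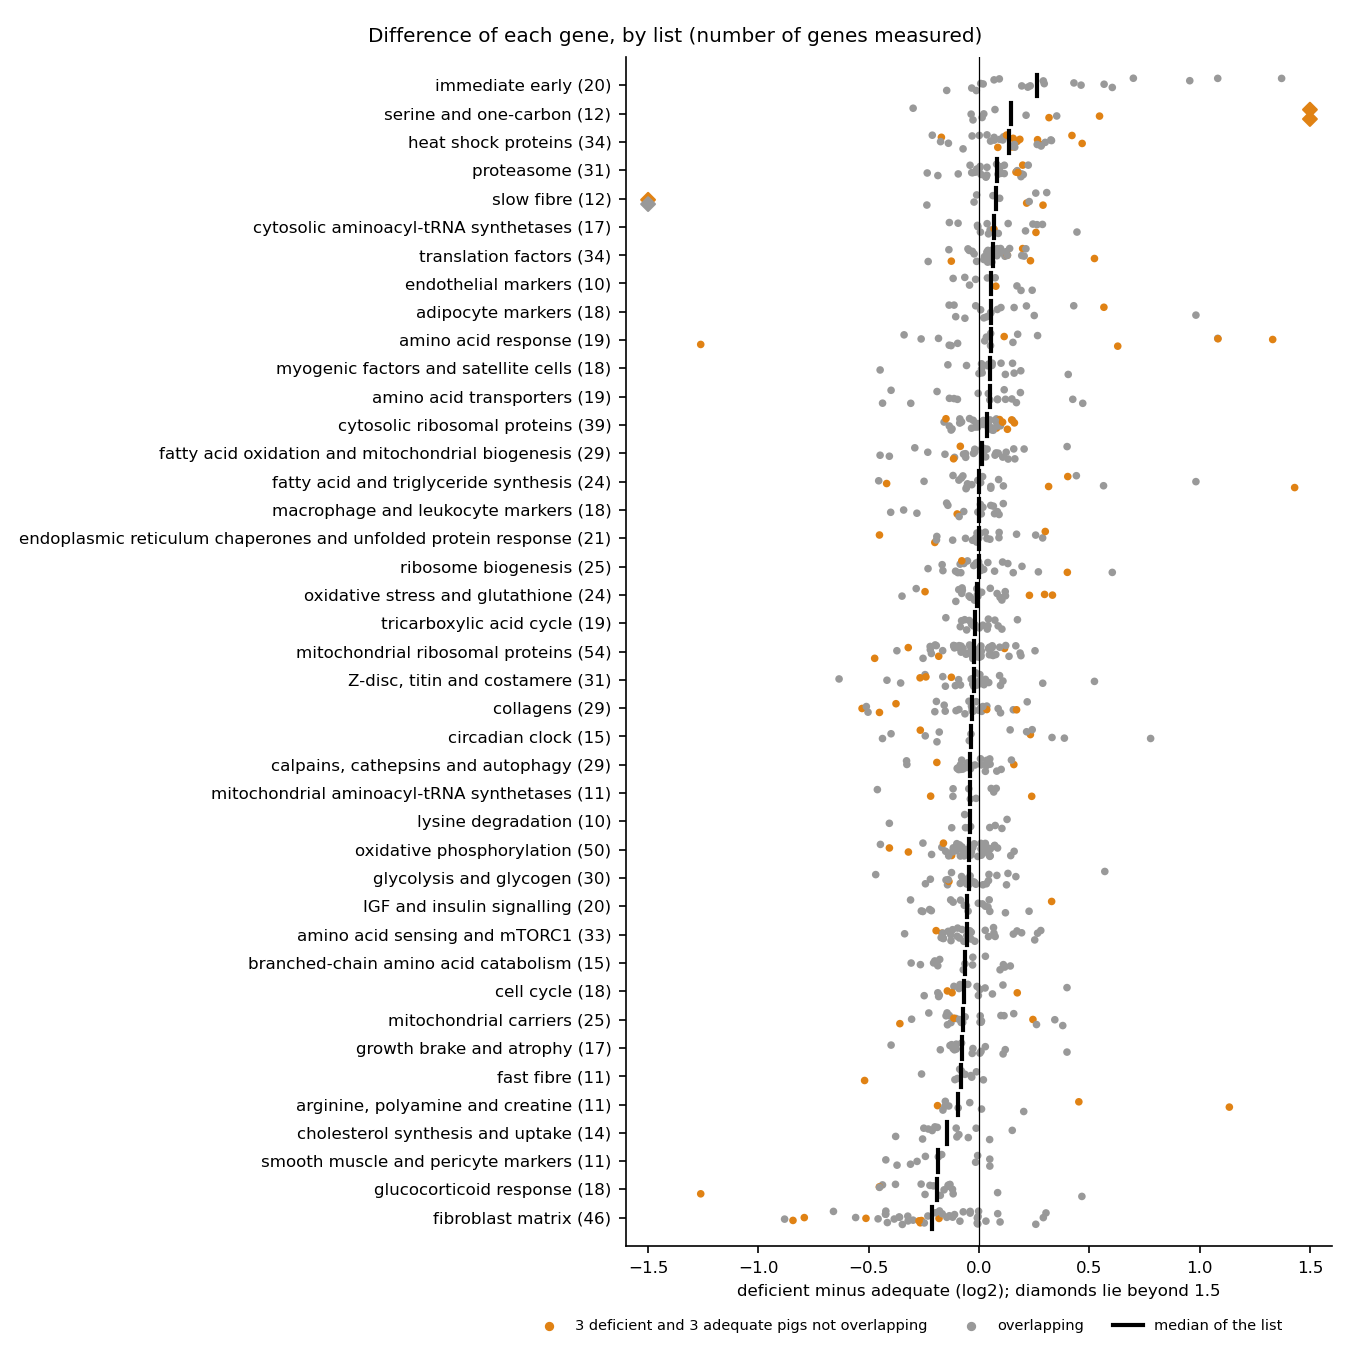
Each point is a gene, placed by its deficient minus adequate difference (log2), in the lists with at least 10 measured genes (numbers in brackets); vertical scatter within a row only separates points. Orange points are genes whose 3 deficient and 3 adequate pigs did not overlap, black bars are list medians and diamonds mark genes beyond 1.5. The medians run from -0.21 for fibroblast matrix to 0.26 for immediate early genes, and most lie within 0.1 of 0.

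Several of the genes with the smallest p or the largest difference belong to none of these lists. UCHL1, a deubiquitinating enzyme abundant in neurons, read 8.21, 8.54 and 6.26 in the deficient pigs and 5.36, 5.87 and 5.84 in the adequate pigs. All deficient pigs were higher, but pig 3 (6.26) was close to pig 6 (5.87), and the difference of 1.98 ± 0.57 (3.95-fold) was 1.55 without pig 2. FUT1, a fucosyltransferase, read 6.59, 6.25 and 6.29 in the deficient pigs and 5.40, 5.43 and 4.83 in the adequate pigs (1.16 ± 0.21). RND3, a small GTPase that opposes RhoA, read 9.26, 9.16 and 9.34 in the deficient pigs and 8.37, 8.33 and 8.71 in the adequate pigs (0.78 ± 0.15). In both genes the 3 deficient pigs lay close together, above every adequate pig. MICAL2, which oxidises actin, read 8.24, 9.05 and 8.31 against 7.57, 7.57 and 7.07 (1.13 ± 0.38), and EGLN3, an oxygen-sensing prolyl hydroxylase, 8.57, 9.04 and 8.69 against 7.93, 8.37 and 7.57 (0.81 ± 0.24). CEP85L, a centrosome protein, PMS1, a mismatch repair protein, and the transcription factor ZIC1 were above by 0.50 ± 0.10, 0.38 ± 0.10 and 0.44 ± 0.12. None of these genes overlapped between the diets.

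On the lower side, CPEB2, which binds mRNA and controls its translation, had the smallest p of the lower probe sets with a gene symbol. It read 4.99, 4.91 and 5.02 in the deficient pigs and 5.33, 5.49 and 5.41 in the adequate pigs, near or below the median probe set (-0.43 ± 0.07). SNX7, a sorting nexin, differed by -0.49 ± 0.10, PIP4K2A, a phosphoinositide kinase, by -0.45 ± 0.11 and ANO10, of the anoctamin family, by -0.60 ± 0.16. RBM38, an RNA-binding protein induced by p53, differed by -0.33 ± 0.08. All 5 genes were without overlap. Larger but looser differences were those of ARRDC2, an arrestin-domain protein, with 6.08, 5.75 and 6.19 against 6.49, 7.89 and 7.91 (-1.42 ± 0.53), and ST8SIA2, a polysialyltransferase, with 6.50, 5.29 and 6.93 against 7.62, 7.29 and 7.46 (-1.22 ± 0.57). ADAMTS8, a metalloprotease, differed by -0.94 ± 0.74, which rested on adequate pig 7 at 8.01 (-0.34 without it). The natriuretic peptide clearance receptor NPR3 likewise gave -1.07 ± 0.62 and, without pig 7, -0.32. GADD45G, a stress-induced gene, differed by -1.03 ± 0.33, with deficient pig 3 and adequate pig 7 both at 6.18.

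Some of the largest differences were measured on probe sets without a gene symbol here. One of them, numbered 15341503 on the array, read 11.10, 10.39 and 9.51 in the deficient pigs and 9.09, 8.30 and 8.04 in the adequate pigs (1.86 ± 0.42). Its 6 pigs stood in the order of PSAT1, and all deficient pigs lay above all adequate pigs.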

How the data were processed

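RNA of each pig's muscle was hybridised to a porcine whole-transcript array, per the labels' protocols. The authors deposited 1 value per probe set and pig, and the values (3.097 to 14.303) were taken to be log2 signals. The submitters' processing notes list GCOS 1.2 and Partek but no role for either. How background, probes and arrays were adjusted is not given in the sources used here. Annotation gave 13323 probe sets 1 symbol, 357 several and 13878 none, with 12925 matched to the pig gene table and 7 symbols updated. Control probe sets could not be told apart and were tested too. For a gene with several probe sets the brightest was used in the lists.

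Differences were fitted with limma 3.58.1 (R 4.3.3, 1 mean per diet, 9 arrays, two-sided, Benjamini-Hochberg, threshold 0.05), and the fit was tested on simulated data. The number of arrays limits the precision. The members and gene lists were chosen with earlier results of these data known. Genes were named by rule: up to 15 per direction by smallest p and 10 by size among probe sets with 1 symbol, at or above the median level and without overlap. Other genes named, mostly 4 per list by p and 2 by size, include some chosen after their values were seen. Alternatives were another normalization, other sets of arrays, variance priors, array weights, filters and leaving out each pig. The planned promoter motif count was not run, since promoter sequences were not used here.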

Additional observations from a re-analysis of the deposited data

How the results depend on the processing

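No probe set passed the adjusted threshold in the limma fit or under any alternative, except that array quality weights, whose estimation stopped before converging, gave 1 (PHGDH). The unadjusted count of 511 was 941 with the 6 compared arrays alone, 976 without the array of excess pig 11 and 2207 with array weights. It was 233 with probe sets of 1 symbol and from 366 to 794 as each pig was left out. Median centring gave 346 and quantile normalization of the deposited values 578. The 1885 probe sets without overlap were 955 among those with 1 symbol, and from 3562 to 6936 as each pig was left out, where fewer pigs make separation easier. No paired analysis was made because the labels state no pairing of pigs between the diets. Signs of the named differences were kept under the alternatives run except in the following genes, all with small differences or overlapping pigs; the cause was not tested. With quantile normalization of the deposited values ACTA1 gave 0.00 and MYL2 0.04. With array weights ACTA1 gave 0.02, KARS 0.01 and PDK4 0.13. As each pig was left out, the differences ran as follows: AASS from -0.46 to 0.08, ACTA1 from -0.07 to 0.06, CHAC1 from -0.55 to 0.54, DDIT3 from -0.40 to 0.07, FBXO32 from -0.49 to 0.20, HSD11B1 from -0.72 to 0.05, IGF1 from -0.29 to 0.11, KARS from -0.07 to 0.07, LEP from -0.04 to 0.17, MSTN from -0.18 to 0.34, MTHFD1 from -0.55 to 0.13, MTOR from -0.06 to 0.14, MYH7 from -0.04 to 0.15, MYL2 from -0.10 to 0.04, PDK4 from -0.81 to 0.28 and SLC7A2 from -0.03 to 0.40. The median difference of all probe sets was 0.0071 as deposited, 0.0002 with quantile normalization and 0.0007 with median centring. Both methods align the arrays, so a value near 0 was bound to result. The smallest signals, near the floor of the array, limit folds such as that of PHGDH.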
